A study of Solanum lycopersicum with 12 samples.

Results

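Transcripts encoded by the plastid and mitochondrial genomes were read with 13 probe sets, out of 10209 on the tomato array. They were taken from the list of Alethea-induced genes in the study's additional data, by their descriptions as cemA, ycf4, cytochrome f, NDH subunits, ribosomal proteins and the alpha subunit of F1-ATPase, 12 of the plastid genome and 1 of the mitochondrial genome. That list describes a further 6 probe sets as organelle genes, which are not members and are given below. They stand for 12 genes, since rps12 has a pair of probe sets. The list was made from the Alethea against water difference on these same arrays, so that difference is given below as a description and without a test. The probe set for ndhA was listed for salt as well, so its salt difference was not independent of the choice either.

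Leaves of tomato cultivar Ailsa Craig were sprayed with Alethea or with distilled water at 4 weeks of age and watered 24 h later with 100 mM NaCl or with water. Alethea is a plant activator product that contains potassium dihydrojasmonate, sodium benzoate and arginine. The formulation used also held zinc, iron, manganese, copper, magnesium oxide and boron as nutrients, so Alethea minus water is the difference of the whole product. The groups were AS (Alethea, then salt), AW (Alethea, then water), WS (water, then salt) and WW (water, then water), named pre-treatment first, and leaf 3 was taken 48 h after the spray. Each group was sampled on 3 separate occasions, and each of the 12 arrays held 1 RNA extract pooled from leaf 3 of 3 plants. Values are the authors' GCRMA log2 signals, so a difference of 1 is a doubling of signal, and they serve to compare arrays for 1 probe set, not probe sets with each other. In whole-leaf RNA, fewer cells of a type and less RNA per cell cannot be told apart, and the same holds for organelles per cell and RNA per organelle.

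Plastids and mitochondria keep small genomes of their own, which encode core subunits of the photosynthetic and respiratory complexes and part of the organelle's own ribosome. Plastid genes are commonly transcribed together in runs of neighbours and then cut and trimmed, and most of the proteins of both organelles are encoded in the nucleus. Unlike nuclear messengers, organelle transcripts of plants carry no stable poly(A) tail. The labels name a 3′ in vitro transcription kit, and such kits prime on poly(A), so what share of each organelle transcript was labelled is not known.

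All 12 arrays had similar medians, from 7.66 to 7.76. The leaf markers CAB4, CAB5, CAB6A, PSBO and PETE read between 14.46 and 15.31 in every array. Their summed level was 74.2 to 75.4 in AS, 74.3 to 75.5 in AW, 74.9 to 75.6 in WS and 74.5 to 75.5 in WW arrays. Of the markers of other organs, the fruit genes E8 and RIN stayed between 2.29 and 2.60 and the trichome gene MTS1 between 2.14 and 2.40. Some labelled markers were nevertheless well detected in leaf, such as the root gene RSI-1 (8.84 to 11.35) and the flower gene TDR4 (5.88 to 8.76). Arrays of 1 occasion shared deviations from their group means, and the WW and WS arrays of occasion 2 had higher ribosomal RNA and hybridisation controls than the others of that occasion, with values given below.

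After Alethea, all 13 organelle probe sets stood higher in occasions 2 and 3, while in occasion 1 the pairs of arrays differed. Without salt, 0 of 13 were above 0 in occasion 1 (median -0.485), against 54.4 percent of all probe sets kept. Under salt, 9 of 13 were above 0 (median 0.11, highest 0.66), against 49.9 percent. The median difference over the 13, Alethea minus water averaged over salt and no salt, was -0.20 in occasion 1, 2.48 in occasion 2 and 2.47 in occasion 3. The same medians over the 7779 probe sets kept by the filter were 0.01, 0.02 and -0.03. In occasions 2 and 3 the 4 Alethea arrays lay above the 4 water arrays for 13 of 13 members, a pattern shown by 9.55 percent of all probe sets kept. All 4 differences of these occasions were above 0 for 13 of 13, against 22 percent of all, and the smallest was 0.78. Over all 3 occasions, no member had its 6 Alethea arrays all above its 6 water arrays, which 0.643 percent of probe sets did. Both differences of occasion 1 were smaller than each of the 4 later ones for 13 of 13 members, against 10.7 percent. Over all 6 pairs the median difference of the members was 1.48, and 2.40 without occasion 1. Because these counts use the contrast that chose the members, nothing is read from their size.

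**Figure D1:**
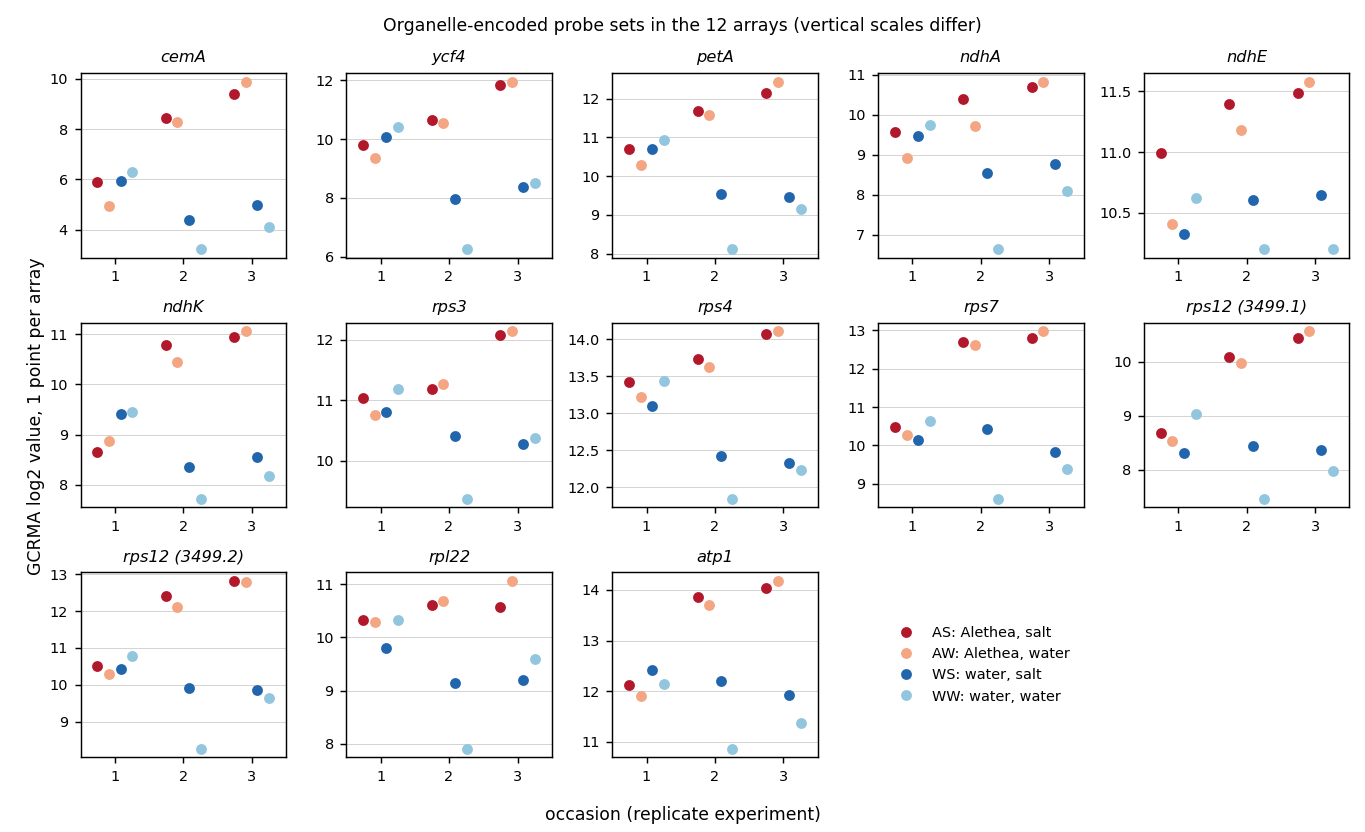
GCRMA log2 value (vertical axis, 1 scale per panel) of the 13 organelle-encoded probe sets in the 3 occasions (horizontal axis), with 1 point per array and colours for AS, AW, WS and WW. In occasion 1 the 4 groups lie together, within 0.34 to 1.34 log2 units depending on the gene, and in occasions 2 and 3 the red Alethea points lie above the blue water points in every panel.

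The gene with the largest difference was cemA (LesAffx.59659.1.S1_at), which encodes a protein of the inner plastid envelope. It read 5.90, 8.43 and 9.39 in AS leaves of occasions 1, 2 and 3 and 4.95, 8.27 and 9.89 in AW leaves. In the water-sprayed plants it read 5.92, 4.37 and 4.97 in WS and 6.29, 3.22 and 4.10 in WW leaves. The 4 arrays of occasion 1 thus sat below the later Alethea arrays and, with AW of occasion 1 at the level of WS of occasion 3 as the exception, above the later water arrays. The difference averaged 2.99 ± 3.19 (SD over 3 occasions), from -0.68 in occasion 1 to 4.55 and 5.10 in occasions 2 and 3. Over occasions 2 and 3 alone it was 4.83, a signal 28.4 times as high. The WW value of occasion 2, 3.22, is close to the filter value of 3.2, at which signal and background are hard to separate.

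In the plastid gene order of RefSeq (assembly SLM_r2.1), cemA lies between ycf4 and petA, and all 3 were among the members. The product of ycf4 (LesAffx.482.1.S1_at) helps to assemble photosystem I. It read 9.81, 10.67 and 11.83 in AS and 9.36, 10.56 and 11.96 in AW leaves, against 10.07, 7.95 and 8.39 in WS and 10.41, 6.25 and 8.51 in WW leaves. In occasion 1 both water arrays were above both Alethea arrays, and in the later occasions the order was turned round with no overlap. The petA product is cytochrome f of the cytochrome b6f complex, which passes electrons between the photosystems. Its probe set (LesAffx.51226.1.A1_at) read 10.71, 11.68 and 12.14 in AS and 10.30, 11.58 and 12.44 in AW leaves, against 10.69, 9.54 and 9.47 in WS and 10.93, 8.11 and 9.14 in WW leaves. Differences in occasions 1, 2 and 3 were -0.66, 3.52 and 3.45 for ycf4 and -0.31, 2.80 and 2.98 for petA. Over the 12 arrays, after removing each occasion's mean, ycf4 and petA correlated with an r of 0.995, a description in which both genes were read on the same arrays.

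The members ndhA, ndhK and ndhE encode subunits of the plastid NDH complex, which returns electrons from the stroma to the plastoquinone pool in cyclic electron flow around photosystem I. For ndhA (LesAffx.44224.1.A1_at) the values were 9.58, 10.39 and 10.69 in AS and 8.91, 9.73 and 10.83 in AW leaves, against 9.47, 8.53 and 8.78 in WS and 9.75, 6.63 and 8.09 in WW leaves. The WW array of occasion 2 was more than 1 log2 unit under every other array of this gene. For ndhK (LesAffx.10234.1.S1_at) they were 8.66, 10.78 and 10.95 in AS and 8.87, 10.44 and 11.06 in AW leaves, against 9.42, 8.36 and 8.55 in WS and 9.46, 7.72 and 8.18 in WW leaves. In occasion 1 the Alethea array of ndhK was the lower in both pairs, with differences of -0.59 without salt and -0.76 under salt. The smallest change of all belonged to ndhE (LesAffx.35136.1.S1_at), with 10.99, 11.40 and 11.49 in AS and 10.41, 11.18 and 11.58 in AW leaves, against 10.33, 10.61 and 10.65 in WS and 10.62, 10.20 and 10.20 in WW leaves. Its difference was 0.22, 0.89 and 1.11 in the 3 occasions, so Alethea under salt was already higher in occasion 1, by 0.66. The genes ndhE and ndhA lie in the same run of ndh genes in RefSeq and ndhK in another.

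A further 6 members, for 5 genes, encode proteins of the plastid ribosome, which makes the plastid's own proteins. Of these genes, rps3 of the small subunit and rpl22 of the large one are neighbours in RefSeq. The rps3 probe set (LesAffx.18735.1.S1_at) read 11.04, 11.19 and 12.08 in AS and 10.75, 11.27 and 12.14 in AW leaves, against 10.81, 10.41 and 10.27 in WS and 11.18, 9.37 and 10.38 in WW leaves. For rpl22 (LesAffx.51319.1.S1_at) the values were 10.32, 10.60 and 10.57 in AS and 10.28, 10.68 and 11.06 in AW leaves, against 9.80, 9.14 and 9.20 in WS and 10.32, 7.91 and 9.59 in WW leaves. The Alethea arrays of rpl22 spanned less than 1 log2 unit over the 3 occasions, and its water arrays spanned more than 2. Differences in occasions 1, 2 and 3 were -0.10, 1.34 and 1.78 for rps3 and 0.24, 2.11 and 1.42 for rpl22.

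The other ribosomal members belong to the small subunit. The probe set for rps4 (LesAffx.3394.1.S1_at) was near the top of the array's range, with 13.42, 13.73 and 14.07 in AS and 13.22, 13.63 and 14.11 in AW leaves, against 13.10, 12.42 and 12.33 in WS and 13.44, 11.84 and 12.23 in WW leaves. For rps7 (LesAffx.33796.2.S1_at) the values were 10.47, 12.71 and 12.79 in AS and 10.28, 12.61 and 12.98 in AW leaves, against 10.14, 10.43 and 9.82 in WS and 10.63, 8.60 and 9.39 in WW leaves. The 4 later Alethea arrays of rps7 lay more than 2 log2 units above the 4 later water arrays. Its difference was -0.02, 3.14 and 3.28 in the 3 occasions, and that of rps4 was 0.05, 1.55 and 1.81.

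The 2 probe sets for rps12, a gene whose transcript is joined from separately transcribed parts, carry the same cluster number and differ in the subcluster (3499.1 and 3499.2). One of them (LesAffx.3499.1.S1_at) is described as rps12 in 1 of the study's additional files and as clpP, a protease subunit gene that lies beside rps12 in RefSeq, in another. It read 8.68, 10.10 and 10.44 in AS and 8.53, 9.98 and 10.57 in AW leaves, against 8.31, 8.44 and 8.36 in WS and 9.04, 7.46 and 7.98 in WW leaves. The second (LesAffx.3499.2.A1_at) read 10.51, 12.41 and 12.82 in AS and 10.29, 12.10 and 12.80 in AW leaves, against 10.43, 9.92 and 9.86 in WS and 10.78, 8.27 and 9.63 in WW leaves. Both showed the pattern of the other members, with differences of -0.07, 2.10 and 2.34 and of -0.20, 3.16 and 3.06 in the 3 occasions.

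The mitochondrial member, atp1 (LesAffx.29730.2.S1_at), encodes the alpha subunit of the F1 part of ATP synthase, which makes ATP in respiration. It read 12.12, 13.86 and 14.04 in AS and 11.90, 13.70 and 14.18 in AW leaves, against 12.42, 12.21 and 11.92 in WS and 12.14, 10.87 and 11.37 in WW leaves. The difference was -0.27, 2.24 and 2.47 in the 3 occasions, inside the range of the plastid members. In RefSeq the mitochondrial genome also holds genes named rps3, rps4 and rps12, and the files do not show whether the probes of those members could read them as well.

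**Figure D2:**
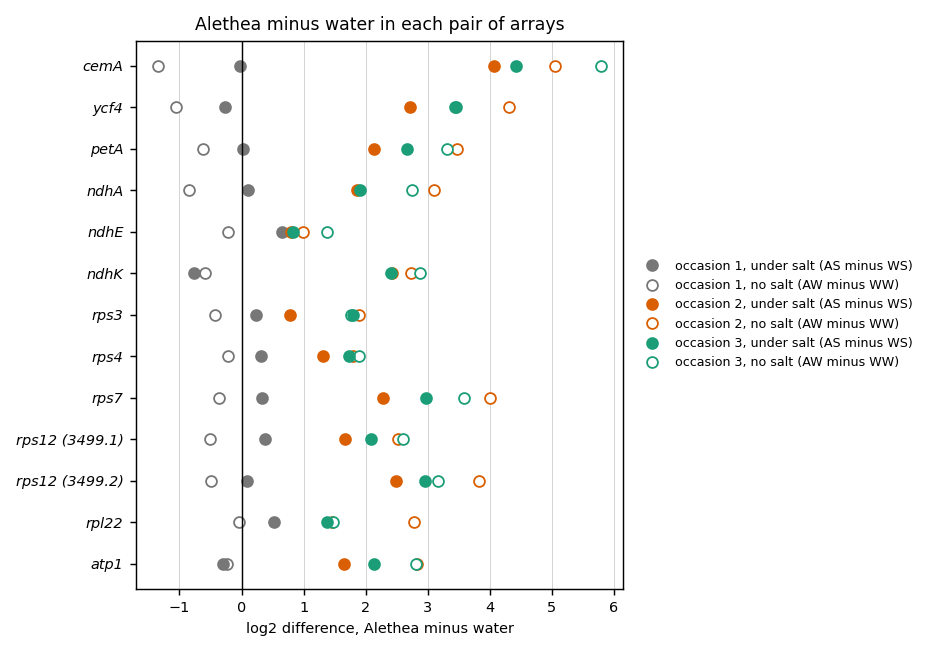
Alethea minus water (horizontal axis, log2 units) for each of the 13 probe sets (vertical axis), with 1 point for each of the 6 pairs of arrays of the same occasion, filled for the pairs under salt (AS minus WS) and open for the pairs without salt (AW minus WW). Grey points of occasion 1 lie between -1.34 and 0.66, and the points of occasions 2 and 3 lie between 0.78 and 5.79.

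The members moved together. Among the 78 pairs of members, r over the 12 arrays after removing occasion means was 0.865 to 0.997 with a median of 0.976, and 75 pairs had an r over 0.9. The lowest r was between ndhE and rpl22 and the highest between rps7 and the second rps12 probe set. These values share the 12 arrays and the rule that chose the probe sets, and are given as a description. Of the 7766 other probe sets kept, 69 correlated with the mean of the members with an r over 0.9 and 52 with an r under -0.9.

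For 12 of 13 members the array with the highest value was AW of occasion 3, the exception being the second rps12 probe set (AS of occasion 3), and the lowest was WW of occasion 2 for 13 of 13. The mean over the members was 10.17, 11.38 and 11.79 in AS and 9.85, 11.21 and 11.97 in AW arrays of occasions 1, 2 and 3, against 10.07, 9.41 and 9.43 in WS and 10.38, 8.19 and 9.14 in WW arrays. For 13 of 13 members the mean of occasion 1 lay between the Alethea mean and the water mean of occasions 2 and 3. That count uses the difference that chose the members and has no share over all probe sets beside it, so nothing is read from it. The range over the 4 arrays of occasion 1 was 0.34 to 1.34 log2 units with a median of 0.63. Over the 8 arrays of occasions 2 and 3 it was 1.38 to 6.67 with a median of 3.35. A range widens with the number of arrays, and the later one holds the difference that chose the members, so these ranges are not compared.

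Levels in occasion 1, averaged over the 4 groups, were then set against the mean of occasions 2 and 3, a comparison that does not use the Alethea contrast. A limma model with the 4 groups and the 3 occasions as terms was fitted to all 7779 probe sets kept, and a probe set was called where its p, adjusted by Benjamini-Hochberg across them all, was below 0.05. By limma, 27.4 percent of all probe sets were higher in occasion 1 and 24.7 percent were lower, 52.1 percent in all, against 0 of 13 members. None of the members had an unadjusted p under 0.05. Their changes ran from -0.81 for cemA to 0.40 for ycf4, and the median size of a change, 0.40, was close to the 0.35 over all probe sets. The median SE was 0.54 for the members and 0.12 for all probe sets kept, and in this model the change of the Alethea difference from occasion to occasion is part of that error. With such errors a member could hardly be called here, and the lack of calls is not read as steady levels. For ndhE, the member with the smallest error, occasion 1 was lower by a change of -0.33 (SE 0.19, limma adjusted p = 0.173).

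The salt differences of the members are not ranked against their Alethea differences, since the members were chosen on the latter. None of the 13 members was called by limma for the salt effect, the mean of AS minus AW and WS minus WW, and none had an unadjusted p under 0.05. The median SE was 0.51 for the members and 0.11 for all probe sets kept. As in the occasion contrast, the change of the Alethea difference between occasions is part of that error. A member could thus hardly be called, and nothing is concluded from the lack of calls. Over all probe sets kept, limma called 0 percent higher and 0.0386 percent lower, with 1092 at an unadjusted p under 0.05. The members moved together, so their signs are not separate results. The fitted change was above 0 for 12 of 13 members, against 50.1 percent of all probe sets kept, with a median of 0.28 against 0.00029. The largest was that of ndhA, 0.59 (SE 0.51, 95% interval -0.56 to 1.74, limma adjusted p = 0.649). For cemA it was 0.38 (SE 0.91, 95% interval -1.71 to 2.46) and for atp1 0.40 (SE 0.44, 95% interval -0.60 to 1.41). The most precise was that of ndhE, 0.21 (SE 0.18, 95% interval -0.19 to 0.61, limma adjusted p = 0.636). A doubling was outside its interval, whereas the intervals of most members were too wide to exclude a doubling. Rank Product is the rank test of the study, which ran it on pair-wise comparisons with permutations. Here it was run on the 6 within-occasion pairs together, with a gamma approximation, so it is no rerun of the study's test. It called 1.4 percent of probe sets higher under salt and 1.36 percent lower. It called 1 of 13 members, ndhA (adjusted p = 0.0466), the member that the study had itself listed for salt.

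By pair of arrays, the salt difference of the members depended on the WW array of occasion 2. The median of WS minus WW was -0.34 in occasion 1, 1.23 in occasion 2 and 0.37 in occasion 3, with 1, 13 and 10 of 13 members above 0. Of all probe sets kept, 50.8, 51.8 and 47.8 percent were above 0. After Alethea, the median of AS minus AW was 0.22, 0.12 and -0.14 in occasions 1, 2 and 3, with 12, 11 and 1 of 13 above 0. The shares of all probe sets kept were 45.7, 53.1 and 53.0 percent. Without occasion 2, the median fitted salt change over the members was 0.003. The largest values were those of ndhA, rps7 and ycf4 in the pair without Alethea in occasion 2, at 1.90, 1.83 and 1.70. Without the WW array of occasion 2, the fitted salt change was below 0 for 9 of 13 members, which were rpl22 (-0.37), ycf4 (-0.17), both rps12 probe sets (-0.11 and -0.04), rps3 (-0.08), rps7 (-0.06), ndhK (-0.06), rps4 (-0.05) and petA (-0.03), a check added after the values had been seen. It was 0.23 for ndhA, 0.17 for atp1, 0.15 for ndhE and 0.02 for cemA. The interaction of salt and Alethea, (AS minus AW) minus (WS minus WW), was called for 0 of 13 members and 0 percent of all probe sets by limma, with 0 of 13 members and 169 of all at an unadjusted p under 0.05. It was above 0 for 1 of 13 members, against 48.6 percent of all probe sets kept, and ran from -0.65 for atp1 to 0.04 for ndhE. The SEs of the members were 0.35 to 1.83 with a median of 1.01, against a median of 0.22 over all probe sets kept. This test could hardly call a member either.

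**Figure D3:**
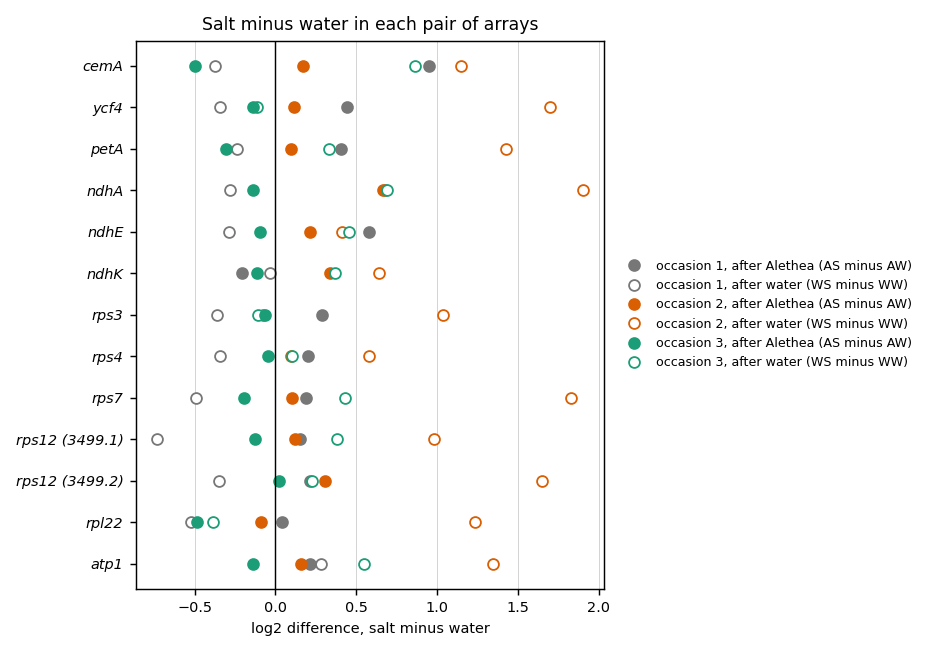
Salt minus water (horizontal axis, log2 units) for the 13 probe sets (vertical axis) in the 6 pairs of arrays, filled for plants sprayed with Alethea (AS minus AW) and open for plants sprayed with water (WS minus WW). The open orange points, WS minus WW of occasion 2, lie between 0.41 and 1.90, and most other points lie within 0.5 of 0.

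For 6 members the array also carries a probe set built on the other orientation of the same sequence, marked by A in place of S in its name or the reverse. The files do not state which orientation is the coding strand. For ndhK (LesAffx.10234.1.A1_at) the opposite probe set stayed between 2.03 and 2.14 in all 12 arrays and was removed by the filter. The opposite probe set of petA (LesAffx.51226.1.S1_at) ran from 2.76 to 3.93, and its Alethea differences were between -0.57 and 0.76. That of the second rps12 probe set (LesAffx.3499.2.S1_at) lay between 2.96 and 3.24 in 11 arrays and at 5.87 in the AS array of occasion 2. Their r with the members was 0.281 for petA and 0.498 for rps12, so neither followed them as closely as the members followed each other.

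The opposite probe sets of rpl22, rps3 and ndhA are in the study's own lists, for Alethea in the case of rpl22 and for salt in the case of rps3 and ndhA. For rpl22 (LesAffx.51319.1.A1_at) the values were 6.55, 6.64 and 5.69 in AS and 5.74, 5.81 and 5.80 in AW leaves, against 5.63, 5.76 and 4.00 in WS and 6.22, 4.62 and 3.64 in WW leaves. It followed the members with an r of 0.908. For rps3 (LesAffx.18735.1.A1_at) they were 4.72, 4.84 and 3.04 in AS and 3.39, 3.08 and 3.40 in AW leaves, against 3.25, 5.14 and 3.07 in WS and 3.42, 2.52 and 2.64 in WW leaves. Its high arrays were thus salt arrays of occasions 1 and 2, and its r with the members was 0.331. For ndhA (LesAffx.44224.1.S1_at) they were 6.24, 5.62 and 4.61 in AS and 4.46, 4.50 and 4.72 in AW leaves, against 4.44, 4.67 and 4.55 in WS and 4.84, 4.46 and 3.16 in WW leaves, with an r of 0.491.

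**Figure D4:**
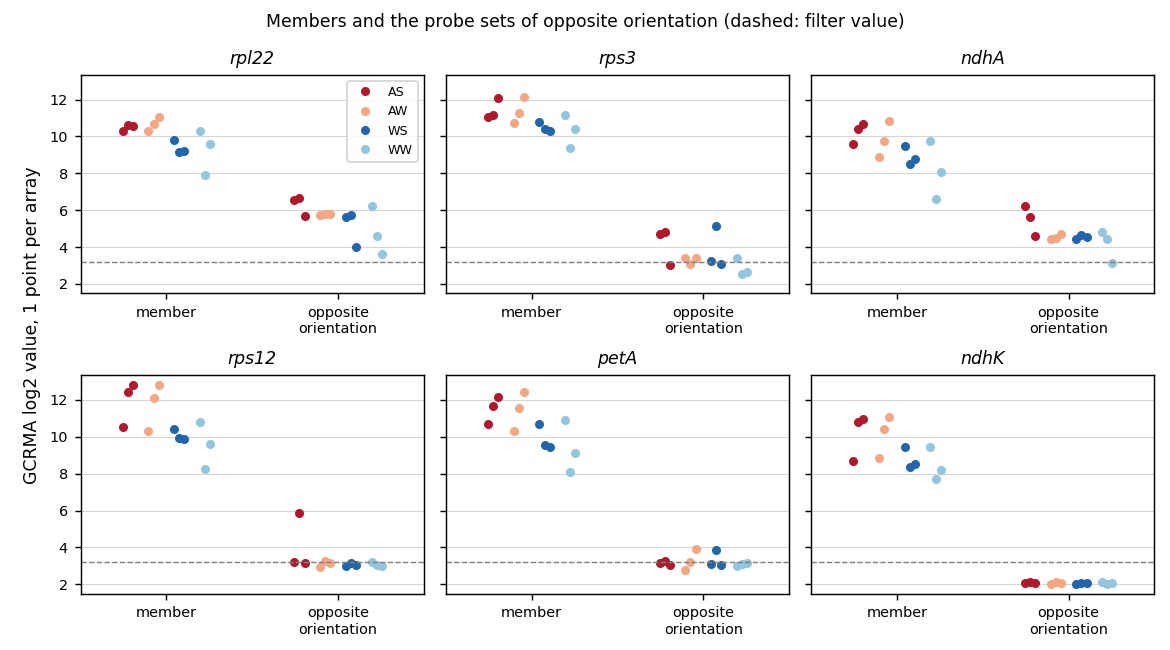
GCRMA log2 values (vertical axis) in the 12 arrays for 6 members and for the probe set of opposite orientation of the same sequence, coloured by group, with the filter value of 3.2 dashed. The opposite probe sets of rps12, petA and ndhK stay at or near the filter value or below it, apart from 1 AS array at 5.87 for rps12.

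Beside the opposite probe sets of rpl22, rps3 and ndhA, the study's additional data describe 6 other probe sets outside the members as organelle genes, 5 of them listed for Alethea. Those for a photosystem II subunit, psbH or psbN (LesAffx.18338.1.S1_at), for a pair of probe sets of a hypothetical plastid protein (Les.4298.2.A1_at and Les.4298.1.S1_s_at), and for a mitochondrial protein described as hypothetical or as rpl2 (Les.4399.2.S1_at) were listed for Alethea, as was a mitochondrial reading frame also described as nad1 (LesAffx.51975.4.S1_at). Their differences after Alethea were -0.66 to 0.14 in occasion 1 and 1.15 to 3.03 in occasions 2 and 3. The exception was petD (LesAffx.11323.1.A1_at), subunit IV of the cytochrome b6f complex, which the study listed for salt alone. It read 9.46, 8.57 and 8.63 in AS and 8.16, 7.39 and 8.60 in AW leaves, against 8.54, 8.32 and 7.77 in WS and 8.04, 8.50 and 6.60 in WW leaves. Its Alethea difference was 0.52, -0.42 and 1.43 in the 3 occasions, its r with the members was 0.345, and in occasion 2 it was -1.10 without salt and 0.25 under salt, where petA was higher after Alethea in both pairs.

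Of the 11 organelle probe sets kept that were not members, limma called 1 higher after Alethea (Les.4298.2.A1_at, change 1.01, SE 0.24, adjusted p = 0.0443), and 3.57 percent of all probe sets were called higher and 4.6 percent lower. Of the 11, 9 had been listed by the study on these arrays, so this is not independent evidence. No symbol in the array's annotation named a gene of either organelle genome.

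Nuclear genes for proteins of the same organelles were read as well. In 4 lists chosen by symbol (photosystem and electron transport proteins, light-harvesting proteins, plastid gene expression, mitochondrial respiration), limma called 0 of 15 probe sets after Alethea, with 0 at an unadjusted p under 0.05. Of all probe sets kept, 3.57 percent were called higher and 4.6 percent lower, so few or no calls among 15 are no result about these lists. The changes of these 15 probe sets had a median of -0.05 and a median SE of 0.066. They are not ranked against the members, which were chosen on this contrast. PETE, the plastocyanin that takes electrons from cytochrome f, averaged 14.70 in AS and 14.71 in AW leaves, against 14.74 in WS and 14.76 in WW leaves, and its differences in the 6 pairs lay between -0.17 and 0.06. PSBO of the oxygen-evolving complex had differences between -0.12 and 0.02. The largest change was that of MTSHP, annotated by symbol as a mitochondrial heat shock protein, at 0.92 (SE 0.45, limma adjusted p = 0.197). CLPP2, a nuclear gene for a plastid protease, changed by 0.06 (SE 0.07). The photosystem and light-harvesting probe sets read close to the top of the array's range, where differences can be compressed, so their small differences set no close limit on the change of these transcripts.

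Among the 1166 named probe sets kept that were not members, the 5 most like the members were the organelle probe sets listed above for Alethea, with r from 0.978 to 0.988. Of these names, 702 came from symbols and 464 from the study's lists of regulated genes, which were chosen on these arrays. The 5 most unlike were a cyclin-like F-box protein (LesAffx.294.1.S1_at, r = -0.974), PLDa1, a phospholipase D (Les.3495.1.S1_at, r = -0.973), the auxin-binding protein ERABP1 (Les.3563.1.S1_at, r = -0.948), a sterol desaturase homolog (LesAffx.40726.1.S1_at, r = -0.944) and an unknown protein (LesAffx.48939.1.S1_at, r = -0.928). PLDa1 differed by 0.10 and -0.04 in occasion 1, without salt and under salt. The differences were -0.53 and -0.24 in occasion 2 and -0.32 and -0.27 in occasion 3, so its mirror pattern was small. For the F-box probe set they were 0.61 and -0.4, -7.54 and -6.67, and -6.16 and -5.66. Its means in AS and AW leaves, 2.5 and 2.77, were below the filter value. In occasions 2 and 3, ERABP1 differed by -0.58 to -0.25. The sterol desaturase homolog differed there by -2.28 to -1.23 and the unknown protein by -3.39 to -1.96. The F-box, sterol desaturase and unknown probe sets were on the study's list of Alethea-lowered genes.

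Some array controls differed between Alethea and water arrays, in pairs that were not the same for each control. The 17S ribosomal RNA probe set read 7.95, 5.98 and 5.02 in AS and 7.77, 4.90 and 5.03 in AW arrays, against 7.39, 9.14 and 4.98 in WS and 7.58, 8.57 and 5.13 in WW arrays. Its Alethea differences were thus -3.67 and -3.16 in occasion 2, without salt and under salt, and between -0.11 and 0.56 in occasions 1 and 3. The 25S probe set differed by -2.42 and -1.47 in occasion 2 and by -0.19 to 0.50 in the others. In the pairs of occasion 3 the ribosomal RNA differences were -0.19 to 0.04, and the mean of the members differed by 2.83 and 2.36. Whether the ribosomal RNA differences had a part in those of the members was not tested.

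The median of the 27 hybridisation controls, which are added in fixed amounts, differed by -1.64 and -1.42 in occasion 2 and by -0.39 to 0.21 in occasions 1 and 3. For actin, the 5′ probe set was lower after Alethea in 6 of 6 pairs, by 0.12 to 1.15, while the 3′ probe set differed by -0.27 to 0.17. The 3′ minus 5′ difference of actin, commonly read as a sign of RNA integrity, was 1.72, 1.43 and 1.25 in AS and 0.94, 1.53 and 1.27 in AW arrays, against 0.54, 0.54 and 0.86 in WS and 0.85, 0.59 and 0.82 in WW arrays. It was larger after Alethea in 6 of 6 pairs, by 0.09 and 1.18 in occasion 1, by 0.93 and 0.89 in occasion 2 and by 0.45 and 0.39 in occasion 3, without salt and under salt in each. For GAPDH the 3′ minus 5′ difference was larger by 0.07 and 0.25, by 0.29 and 0.12 and by 0.14 and 0.10 in the same order. The mean of the members differed in the same order by -0.53 and 0.10, by 3.02 and 1.97 and by 2.83 and 2.36. The part of these controls in the members' differences was not tested.

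**Figure D5:**
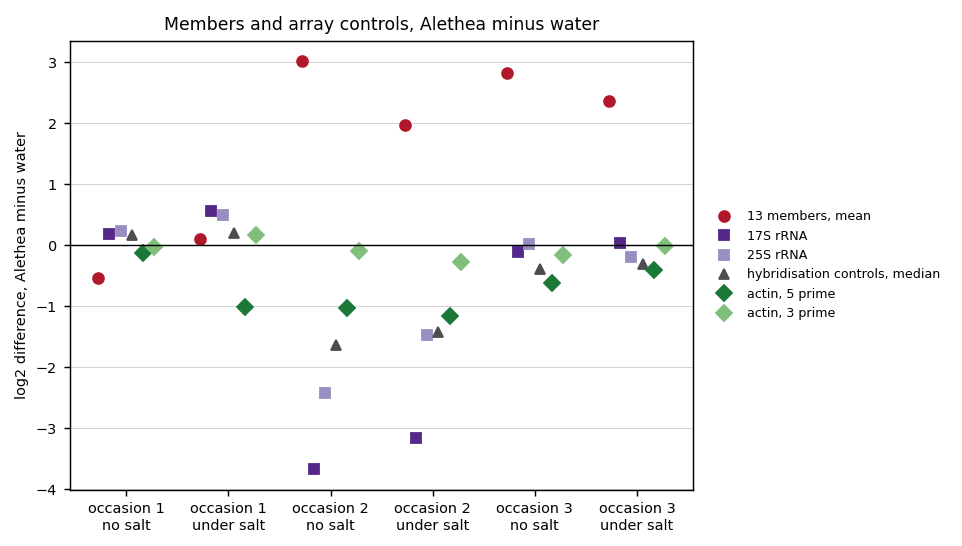
Alethea minus water (vertical axis, log2 units) in the 6 pairs of arrays (horizontal axis) for the mean of the 13 members, the 17S and 25S ribosomal RNA probe sets, the median of the hybridisation controls and the 5′ and 3′ probe sets of actin. The members stand at 1.97 to 3.02 in all 4 pairs of occasions 2 and 3. Ribosomal RNA is far below 0 in the pairs of occasion 2 and close to 0 in those of occasion 3, and the 5′ probe set of actin is below 0 in all 6 pairs.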

How the data were processed

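RNA of 12 arrays was measured on the Affymetrix tomato array, and the deposited values are log2 signals that the authors made with GCRMA (version not given in the sources used here), for 10209 probe sets. Probe sets with a group mean over 3.2 in at least 1 group were kept, the threshold of the study's methods, which left 7779 here, a number close to the study's own but not the same. Salt, the interaction and the occasion contrast were tested with limma 3.58.1 in R 4.3.3 (lmFit, eBayes, 4 group means, occasion as a block, 6 residual and 2.63 prior degrees of freedom), with Benjamini-Hochberg adjustment over all probe sets kept and a threshold of 0.05. The number of arrays limits the precision and, for the members, so does the change of the Alethea difference between occasions. Rank Product was run with a gamma approximation of its null. Both were tested on simulated data. The members and lists were chosen with earlier results of these data known.

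Samples were grouped by their labels. The occasion is the replicate number, which the study's methods describe as a separate experiment. Same-occasion arrays deviated together from their group means (r between 0.437 and 0.875 over 18 array pairs), and between different occasions r ran from -0.793 to 0.625.

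Named probe sets were the 13 members, the others that the study describes as organelle genes, those sharing a member's sequence cluster, up to 6 per nuclear list by mean level, and the 5 most and 5 least alike. Nuclear lists were text patterns for symbols, of which the array's annotation gives 1 to each of 909 probe sets and none to a member. The patterns were corrected after the symbols were read, which let PsbQ in and left out FDH from the photosystem list and SDH, whose meaning is unclear. RefSeq (assembly SLM_r2.1) was used for names and gene order. Alternatives were no block, 2 filters, 2 scalings, a variance trend, Rank Product and leaving out each occasion, and 2 sets of arrays of occasion 2 were left out after the data were seen. Python 3.11.15, pandas 2.3.3, scipy 1.17.1 and matplotlib 3.10.9 were used.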

Additional observations from a re-analysis of the deposited data

Results flagged for a closer look

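For 4 members both Alethea differences of occasion 1 were below 0 and all 4 of occasions 2 and 3 were above 0, a pattern shown by 2.11 percent of all probe sets kept. The mean difference was -0.68 in occasion 1 and 4.83 over occasions 2 and 3 for cemA, -0.66 and 3.48 for ycf4, -0.68 and 2.61 for ndhK, and -0.27 and 2.35 for atp1. The difference between occasions was not tested, since it uses the contrast that chose the members. For the same reason nothing is read from the count of 4 members beside the share of all probe sets.

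Some probe sets of opposite orientation, which are no members, rose more than 1 log2 unit above the highest WW array in single arrays. That of rps3 read 4.72 and 4.84 in AS of occasions 1 and 2 and 5.14 in WS of occasion 2. That of ndhA read 6.24 in AS of occasion 1, and that of rps12 read 5.87 in AS of occasion 2. All 5 values came from salt arrays, and the other arrays of the same groups did not pass the WW arrays by that margin. The study had listed the opposite probe sets of rps3 and ndhA for salt on these same arrays. No share over all probe sets was taken, so nothing is read from the count.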

How the results depend on the processing

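The median Alethea difference over the members, 1.48, was 1.46 after quantile normalisation and between 1.06 and 2.40 when 1 occasion was left out, the highest being that without occasion 1. The median salt difference, 0.276, was between 0.003 and 0.408, and 0.003 was that without occasion 2. Over all probe sets, limma called 3 for salt, and 0 without the replicate block, 6 without a filter, 8 with a mean above 5, 5 after quantile normalisation, 24 with a variance trend, 0 to 13 with a replicate left out (13 without WW of occasion 2) and 1 without WW and WS of occasion 2, while Rank Product called 215. The block changed no call of a member for salt or the interaction. Of the members, limma called 0 for salt under each of these settings and Rank Product 1, ndhA. The 1 call for Alethea among organelle probe sets that are no members became 0 without the block, 0 without a filter, 3 with a mean above 5, 3 with a variance trend, 0 without WW and WS of occasion 2 and 0 to 6 with a replicate left out.

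Salt changes turned sign in 19 of 156 values. With a replicate or the WW array of occasion 2 left out, they ran from -0.173 to 0.478 for ycf4, from -0.064 to 0.541 for rps7, from -0.107 to 0.338 for rps12 (LesAffx.3499.1.S1_at), from -0.039 to 0.550 for rps12 (LesAffx.3499.2.A1_at), from -0.030 to 0.423 for petA, from -0.064 to 0.309 for ndhK, from -0.047 to 0.185 for rps4, from -0.078 to 0.221 for rps3 and from -0.365 to 0.165 for rpl22. Without WW and WS of occasion 2 they were -0.045 for ycf4, -0.065 for rps12 (LesAffx.3499.1.S1_at), -0.017 for rps4 and -0.094 for rps3. None of these changes was called, and the cause of the sign changes was not tested beyond the arrays left out.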
